A study of Mus musculus with 12 samples.

Results

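At embryonic day E16.5 the dorsal cortex of Ash2l conditional knockout (cKO) embryos was compared with that of wild-type (WT) embryos by sequencing of RNA. The comparison holds 6 of the 12 libraries of the series, 3 labelled WT and 3 labelled Ash2l cKO, all of strain C57BL/6, and they were chosen by the age and genotype in their labels. In the cKO embryos a Cre recombinase driven by D6, an enhancer and promoter active in the dorsal telencephalon, deletes Ash2l. Which exons the Cre removes is not stated in the labels, nor whether WT embryos carried the Cre or an unrecombined floxed allele. The other 6 libraries are the same genotypes at E14.5, also 3 against 3, and serve here only for comparison. The question the series poses is what Ash2l does while the cortex forms. Here the E16.5 change is described across genes grouped by function: channels, receptors, synapse, guidance, cytoskeleton, metabolism, signalling, chromatin and cell cycle.

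COMPASS complexes, of which Ash2l is a shared core subunit, place methyl groups on lysine 4 of histone H3, a mark found at the promoters of active genes. Ash2l binds Rbbp5 and is needed for the full activity of the enzymes of the Kmt2 and Setd1 families. At this age progenitors that line the ventricle of the dorsal cortex still divide and produce upper-layer neurons, while deep-layer neurons already extend axons and begin to express channels, receptors and synaptic proteins. The tissue was sequenced in bulk, so fewer cells of a type and less RNA per cell cannot be told apart.

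Each title holds a number that 1 WT and 1 cKO library share. The 3 numbers are written here as A, B and C in rising order, libraries are named WT A to cKO C, and values per library are given in that order. What the number stands for is not given in the labels, nor whether libraries came from separate embryos, so the p-values rest on the spread among these libraries, part of which may be technical. Levels are CPM, a gene's count scaled to the size of its library, and changes are given as the log2 ratio of cKO to WT with a standard error (SE). A gene is called, and said to rise or fall, where its adjusted p from edgeR's quasi-likelihood test is under 0.05. After adjustment for the mean of each genotype, libraries that share a number varied together across genes (correlation 0.281, 0.210 and 0.112). For libraries with different numbers the correlation ran from -0.267 to 0.107. Deviations from the mean of a genotype cancel over its 3 libraries, so these values are not independent of those for shared numbers. The number was therefore also used as a block, and a count from the fit with the block is given where it differs by more than 1.5 times. Counts without a library come from fits without the block and are given by the same measure.

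Totals ran from 15185647 to 19395712 fragments. The first principal component, with 48.6% of the variance, separated the genotypes. Each genotype had 1 library with Xist, WT A and cKO C, and 2 with Y-linked transcripts, so embryo sex did not coincide with genotype. The dorsal cortex gene Emx1 was at 22.5 to 34.5 CPM, while the ventral gene Dlx2 was at 4.42 to 6.51 CPM. Both genes were chosen after their values were seen. The 21 tested GABAergic and ventral markers together summed to 455 to 589 CPM in WT and 407 to 567 CPM in cKO. Choroid plexus markers summed to 645 CPM in WT C and to 16.8 to 38.5 CPM in the other libraries, and their part in the results was not tested, other than by leaving that library out.

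Ash2l itself, at 25816870 to 25847670 of chromosome 8 (mm10, minus strand, 17 exons), was at 135, 130.0 and 136 CPM in the WT libraries and 54.5, 60.8 and 59.2 CPM in the cKO libraries. The 3 cKO values lay far below the 3 WT values and close together (log2 fold change -1.20, SE 0.0683, adjusted p = 8.19e-04). The call was kept in each of the 6 fits that left out 1 library. Fragments were counted over all exons, so RNA from exons that remain after recombination, or from cells the Cre does not reach, still counts.

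Loss of Ash2l was accompanied by lower RNA for many genes of excitability, synapse and microtubules, and by higher RNA for a smaller number of genes. Of 14865 genes tested, 889 (5.98%) rose and 1469 (9.88%) fell, together 15.9%. With the block 2132 (14.3%) rose and 2658 (17.9%) fell, together 32.2%. The decreases were larger: the median log2 fold change was -0.79 among genes that fell and 0.52 among genes that rose. Of the genes that fell 478 (3.22% of those tested) changed at least 2-fold and 35 at least 4-fold, and of the genes that rose 191 (1.28%) and 81. The cKO libraries did not overlap the WT libraries in 888 of the 889 and in all 1469 genes. Over all genes tested the cKO libraries lay above every WT library in 18.6% and below every WT library in 18.7%. Calls depended on single libraries: without WT A, WT B or cKO B the total was 1127, 987 or 995, without WT C or cKO C it was 1640 or 1856, and without cKO A it was 2855. Without WT A, WT B, WT C, cKO A, cKO B and cKO C, 320, 249, 506, 1050, 264 and 687 genes rose. In the same order 807, 738, 1134, 1805, 731 and 1169 fell. Counts of a list without a library are to be read beside these. Under all 6 of these fits 185 of the 889 and 626 of the 1469 stayed called. With embryo sex as a term 514 genes rose (3.46%) and 1104 fell (7.43%).

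**Figure D1:**
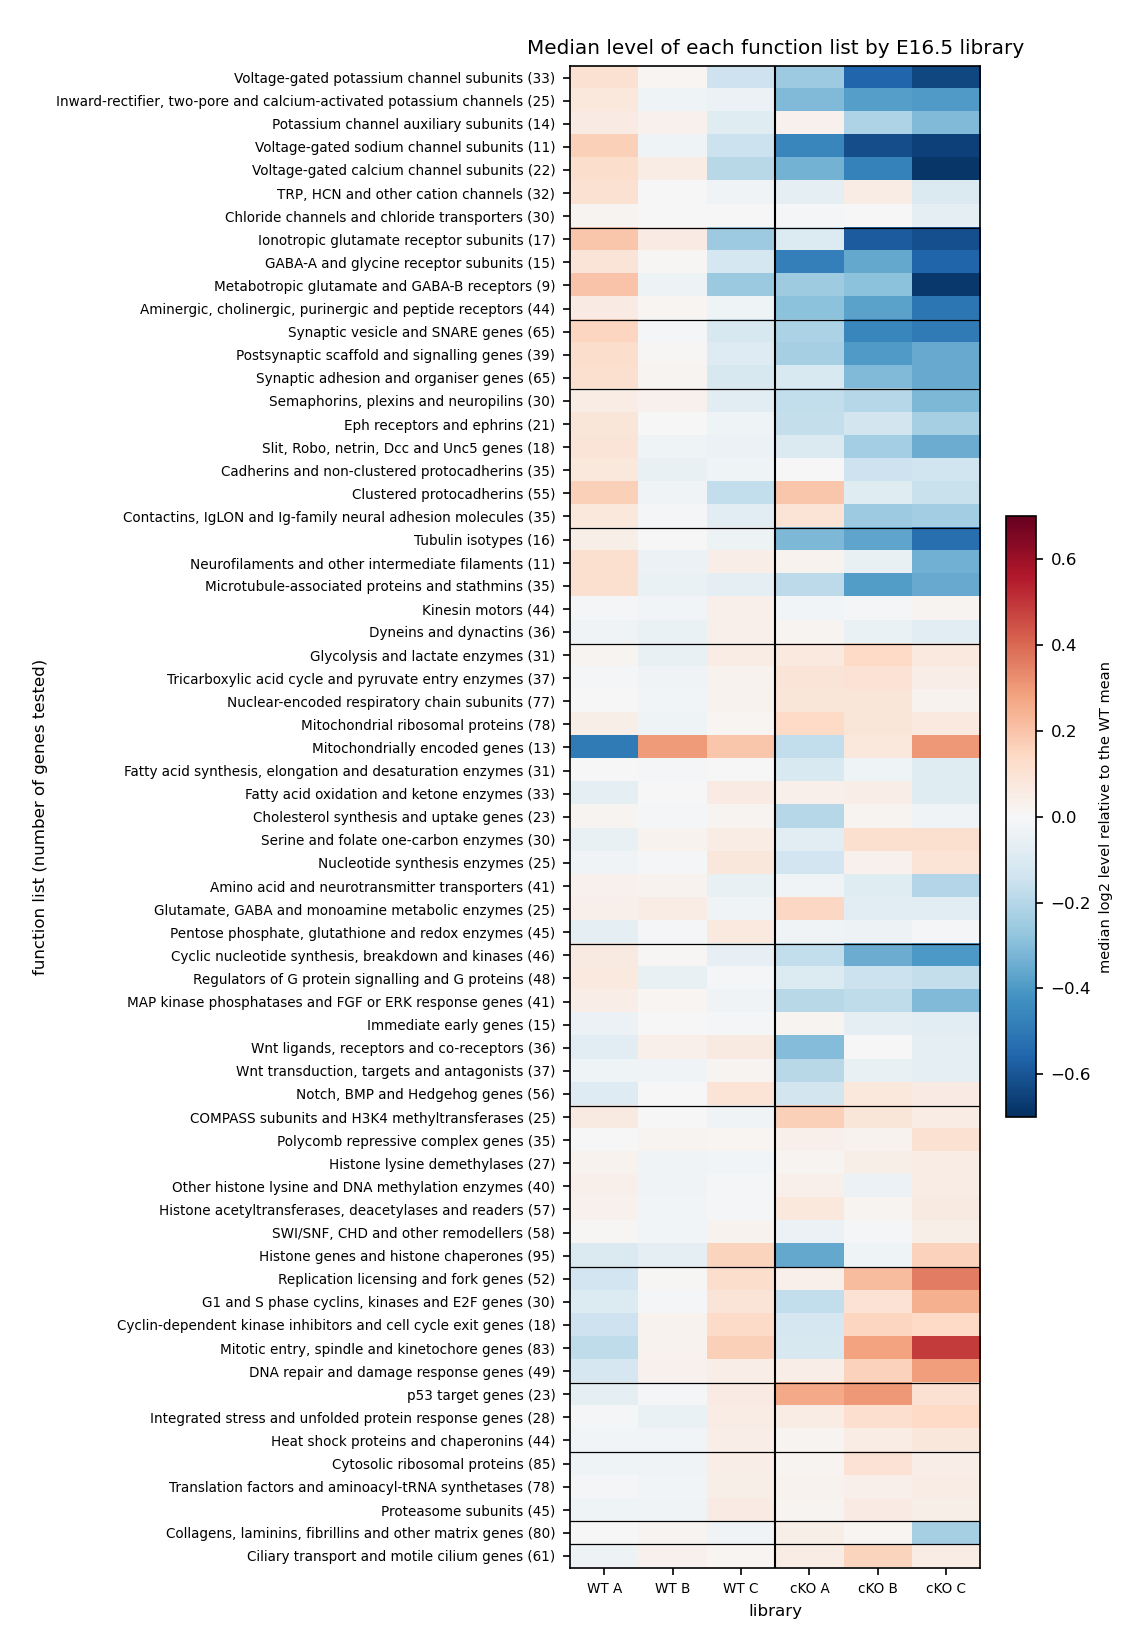
Heat map of the 65 function lists (number of tested genes in brackets) in the 6 libraries. Colour gives the median over a list's genes of the log2 level relative to the WT mean, and black lines separate functional classes. The voltage-gated channel, receptor and synapse lists are blue in the 3 cKO libraries, pale red in WT A and pale blue in WT C, while most metabolic and chromatin lists are pale throughout.

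The largest increases began from genes nearly silent in WT cortex. Pou2af1, a coactivator of B cells, had 1, 1 and 3 fragments in the WT libraries and 84, 50 and 43 in the cKO libraries (log2 fold change 5.09, SE 0.48, adjusted p = 0.00173). With so few fragments in WT the size of this change depends on the prior count of the fit. Arhgap15, which acts on Rac GTPases, was at 1.44, 1.46 and 0.880 CPM in the WT libraries and 20.4, 12.4 and 9.17 CPM in the cKO libraries (log2 fold change 3.48, SE 0.36, adjusted p = 0.00188). The cKO values of Arhgap15 spread widely yet all exceeded WT. Npsr1, a neuropeptide receptor, Apob, a lipoprotein of liver and gut, Tg, the thyroid hormone precursor, and Tph1, an enzyme of serotonin synthesis, rose by 4.11, 3.39, 2.82 and 2.81 (adjusted p from 0.00403 to 0.00745). Each is best known from other tissues or other brain regions, and none exceeded 10 CPM in any library.

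The change of smallest p in the whole table was in Gucy1b2, a subunit of the soluble guanylate cyclase (chromosome 14, 62392670 to 62456289, minus strand, 17 exons in mm10). It was at 4.79, 5.10 and 4.76 CPM in the WT libraries and 30.3, 27.1 and 26.3 CPM in the cKO libraries (log2 fold change 2.52, SE 0.11, adjusted p = 2.97e-04), so that the 3 libraries of each genotype nearly coincided and lay far apart from the other genotype. Casq1, the calcium store protein of muscle, was at 4.95, 3.81 and 4.24 CPM in the WT libraries and 19.5, 17.5 and 15.1 CPM in the cKO libraries (log2 fold change 2.0, SE 0.16, adjusted p = 0.00126). Among decreases the smallest p values belonged to Elovl2, Ptpn5, Fbn2, Smoc1, Igdcc4 and Stmn2. Fbn2, a fibrillin of the extracellular matrix, was at 122, 106 and 87.0 CPM in the WT libraries and 29.3, 26.6 and 27.4 CPM in the cKO libraries (log2 fold change -1.91, SE 0.13, adjusted p = 8.19e-04). Igdcc4, an immunoglobulin-family receptor, was at 84.7, 85.7 and 79.5 CPM in the WT libraries and 40.2, 41.9 and 41.4 CPM in the cKO libraries (log2 fold change -1.02, SE 0.0675, adjusted p = 8.19e-04). In both genes every cKO library was well below every WT library, and for Igdcc4 the spread within a genotype was small.

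Promoters of the genes that changed most differed in their content of CpG, the CG dinucleotide whose dense islands recruit COMPASS in many cell types. Below are the 250 bases before the start of 3 genes in each direction, to show that difference in the letters. The genes have the smallest p among those changed at least 2-fold, at a mean of 1 CPM or more. Genes with overlap of the genotypes, a clone name or no single start in the table of promoters were left out. Genes on the chromosome that holds Fbn2 were left out as well. The bases are RefSeq sequences of GRCm38.p6, 5′ to 3′ on the strand of the gene, with each CG in capitals. Ica1l was added under this rule after its values were seen.
Gucy1b2, chr14:62456290-62456539, minus strand: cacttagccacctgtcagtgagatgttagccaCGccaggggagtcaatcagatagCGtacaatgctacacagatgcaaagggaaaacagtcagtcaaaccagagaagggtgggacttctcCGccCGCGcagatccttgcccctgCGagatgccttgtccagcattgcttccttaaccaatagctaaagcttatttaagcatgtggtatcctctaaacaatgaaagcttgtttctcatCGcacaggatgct
Casq1, chr1:172219896-172220145, minus strand: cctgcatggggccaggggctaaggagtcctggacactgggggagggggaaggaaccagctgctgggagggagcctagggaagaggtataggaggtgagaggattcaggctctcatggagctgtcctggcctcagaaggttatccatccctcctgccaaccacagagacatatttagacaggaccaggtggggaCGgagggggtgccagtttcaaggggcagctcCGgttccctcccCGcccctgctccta
Pou2af1, chr9:51213440-51213689, plus strand: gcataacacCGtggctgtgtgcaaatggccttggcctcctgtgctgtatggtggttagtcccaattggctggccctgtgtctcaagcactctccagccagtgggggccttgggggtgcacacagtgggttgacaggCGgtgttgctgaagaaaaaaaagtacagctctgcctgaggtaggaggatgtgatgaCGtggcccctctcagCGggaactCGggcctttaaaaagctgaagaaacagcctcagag
Igdcc4, chr9:65101236-65101485, plus strand: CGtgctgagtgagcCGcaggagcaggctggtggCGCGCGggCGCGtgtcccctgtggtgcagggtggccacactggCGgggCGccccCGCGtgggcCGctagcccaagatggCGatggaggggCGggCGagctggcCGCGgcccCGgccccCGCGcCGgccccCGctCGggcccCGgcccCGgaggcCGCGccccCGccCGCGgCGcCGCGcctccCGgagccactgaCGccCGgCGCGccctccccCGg
Ica1l, chr1:60043123-60043372, minus strand: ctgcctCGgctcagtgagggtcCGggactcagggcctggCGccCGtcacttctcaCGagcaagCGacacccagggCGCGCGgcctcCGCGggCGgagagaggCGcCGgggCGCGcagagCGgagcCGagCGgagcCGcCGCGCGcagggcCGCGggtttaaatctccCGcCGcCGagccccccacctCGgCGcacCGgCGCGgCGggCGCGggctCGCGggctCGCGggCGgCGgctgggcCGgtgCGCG
Adcy5, chr16:35154614-35154863, plus strand: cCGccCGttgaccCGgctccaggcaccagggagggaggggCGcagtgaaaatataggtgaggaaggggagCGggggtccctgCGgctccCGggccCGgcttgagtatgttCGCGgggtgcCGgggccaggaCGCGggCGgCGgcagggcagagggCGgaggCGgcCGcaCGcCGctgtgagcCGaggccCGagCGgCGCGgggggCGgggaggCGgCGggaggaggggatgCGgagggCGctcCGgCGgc

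The promoters of the genes that rose, Gucy1b2, Casq1 and Pou2af1, hold 7, 3 and 5 CG in these bases. Those of the genes that fell, Igdcc4, Ica1l and Adcy5, hold 39, 45 and 32. These 3 do not stand for all genes that fell, whose share of CpG-rich promoters, given below, was under that of all tested genes. Ica1l, a gene of the islet autoantigen family, was at 23.7, 21.6 and 21.3 CPM in the WT libraries and 7.73, 8.17 and 7.78 CPM in the cKO libraries (log2 fold change -1.49, SE 0.11, adjusted p = 9.21e-04).

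Across genes a promoter was called CpG-rich where, over the 300 bases from 250 before to 50 after a start, the observed to expected CG ratio exceeded 0.6 and the share of G and C exceeded 0.5. A gene with several starts counted as CpG-rich where any of its promoters passed, so genes with more starts had more ways to pass. Of 14865 tested genes 11217 had such a sequence, and 71.6% of these were CpG-rich. Among genes that rose at least 2-fold the share was 23.3% of 133, and among genes that rose less than 2-fold it was 83.8% of 579. Among genes that fell it was 62.2% of 344 at 2-fold or more and 68.2% of 762 below that. Level matters for this comparison, because low genes have fewer CpG-rich promoters in general. Quintiles were cut on the mean over all 6 libraries, so genes that changed are placed partly by their cKO level. Genes that rose at least 2-fold had a median of 0.85 CPM in WT and 2.92 CPM in cKO. For genes that fell at least 2-fold these medians were 9.53 and 3.66 CPM. The quintiles therefore do not match genes on their WT level. In the lowest quintile of genes by mean level the share was 45.1% of all 1889, 16.48% of the 91 that rose at least 2-fold and 60.4% of the 111 that fell at least 2-fold. In the next quintile it was 62.5% of 2204, 44.4% of 36 and 57.7% of 130. In quintile 3 it was 76.4% of all 2371 and 70.1% of the 67 that fell at least 2-fold. In quintile 4 it was 82.0% of 2364 and 64.5% of 31, and in quintile 5 85.7% of 2389 and 100% of 5. With a stricter ratio of 0.75 the shares were 53.5% of all genes, 17.3% of those that rose at least 2-fold and 37.2% of those that fell at least 2-fold, so the lower genes then lay further below all genes. These shares describe the sequences and carry no test.

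**Figure D2:**
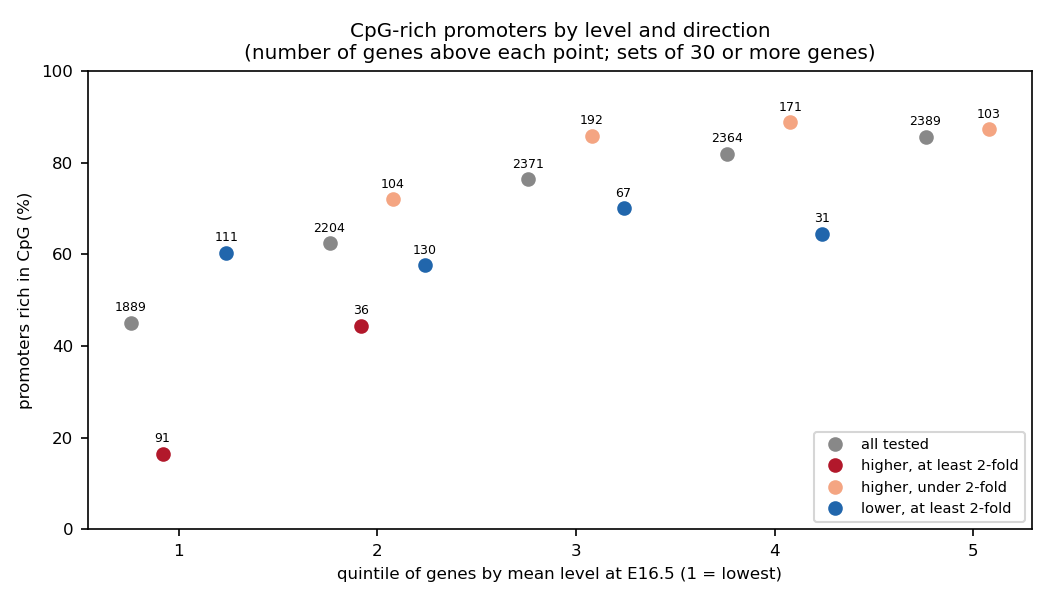
Share of CpG-rich promoters (vertical axis, percent) against the quintile of genes by mean level over all 6 libraries (horizontal axis, 1 lowest). Points are given for all tested genes and for genes that rose or fell at E16.5, with the number of genes above each point. Genes that rose at least 2-fold lie below all genes of the same quintile in the 2 lowest quintiles (16.48% against 45.1%, and 44.4% against 62.5%).

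Ion channels set the threshold, shape and rhythm of neuronal firing. Of 167 tested channel genes 54 fell and 8 rose, 32.3% and 4.79%, beside 9.88% and 5.98% of all genes. Their median log2 fold change was -0.40 beside 0.02 for all genes. Those that fell numbered 33 without cKO B and 35 without WT B, and the number that rose was 3 without WT A, WT B or cKO A and 4 without WT C or cKO B. With the block 17 rose. Pan-neuronal markers moved with these genes: 13 of 20 fell, none rose, and their summed level was 10009, 9582 and 8826 CPM in WT and 7169, 6614 and 6832 CPM in cKO. The number of these markers that fell was 4 without WT A or WT B, 5 without cKO B and 8 without cKO C. The part of these markers in the results on channels, receptors and synapse was not tested.

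Voltage-gated potassium channels repolarise the membrane after a spike. Of 33 tested subunits 12 fell, none rose, and 31 had a negative log2 fold change (median -0.64). With the block 19 fell and 1 rose, and the number that fell stayed within 1.5 times of 12 whichever library was left out. Kcna2, a channel of axons (chromosome 3, 107101567 to 107115005, plus strand, 3 exons in mm10), was at 23.6, 22.6 and 19.7 CPM in the WT libraries and 7.84, 7.86 and 7.52 CPM in the cKO libraries (log2 fold change -1.50, SE 0.11, adjusted p = 0.00126). No cKO library of Kcna2 reached a WT library, and the cKO values nearly coincided. Kcnd3 of the A-type current fell by 0.60 (adjusted p = 0.00346), and the silent subunits Kcng1 and Kcng3 by 1.06 and 2.5 on the log2 scale (adjusted p = 0.00311 and 0.00917). Among 25 inward-rectifier, K2P and calcium-activated channels 9 fell and 1 rose, and the number that fell was 5 without WT A, WT B or cKO B. Kcnk2, a K2P channel opened by membrane stretch, was at 54.3, 47.4 and 44.6 CPM in the WT libraries and 21.8, 19.0 and 20.3 CPM in the cKO libraries (log2 fold change -1.26, SE 0.10, adjusted p = 0.00126). Kcnj11, the pore of ATP-sensitive channels, fell by 0.62 (adjusted p = 0.00322), and Kcnj3, a G protein-gated channel, by 1.01 (adjusted p = 0.00921). The single gene of this list that rose, Kcnj9, was at 1.17, 1.41 and 1.19 CPM in the WT libraries and 3.41, 2.5 and 2.11 CPM in the cKO libraries (log2 fold change 1.09, adjusted p = 0.0330), a call lost without WT A, WT B, WT C, cKO A or cKO B (adjusted p from 0.0695 to 0.105).

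Voltage-gated sodium channels start the spike. Of 11 tested subunits 6 fell and 1 rose (median -0.82), and the number that fell was 3 without WT A or cKO B. Scn3a, a pore subunit of embryonic brain, was at 212, 175 and 156 CPM in the WT libraries and 121, 91.7 and 95.8 CPM in the cKO libraries (log2 fold change -0.82, SE 0.14, adjusted p = 0.00838). Its accessory subunit Scn3b was at 146, 130.3 and 118 CPM in the WT libraries and 76.2, 71.0 and 57.8 CPM in the cKO libraries (log2 fold change -0.94, SE 0.12, adjusted p = 0.00311). Both subunits were lower in every cKO library than in any WT library. Scn8a, a pore subunit of mature nodes and initial segments, was not called, at 128, 111 and 104 CPM in the WT libraries and 135, 101 and 101 CPM in the cKO libraries (log2 fold change -0.03, SE 0.13, adjusted p = 0.918), and its libraries overlapped between genotypes. The member that rose was Scn11a, a channel of sensory neurons, at 0.479, 0.644 and 0.569 CPM in the WT libraries and 1.71, 0.989 and 1.71 CPM in the cKO libraries (log2 fold change 1.37, adjusted p = 0.0356). That call was lost without WT A, WT B, WT C, cKO A or cKO C (adjusted p from 0.0715 to 0.120).

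Calcium channels couple firing to transmitter release and gene expression. Of 22 subunits 12 fell and 1 rose (median -0.48), and the number that fell was 6 without cKO B and 7 without WT B. Calcium channel genes that rose numbered 2 with the block and 2 without cKO C. The L-type pore Cacna1d was at 116, 105 and 90.6 CPM in the WT libraries and 48.2, 42.1 and 39.0 CPM in the cKO libraries (log2 fold change -1.27, SE 0.12, adjusted p = 0.00163). Cacna1h, a T-type pore that opens near rest, was at 148, 160.0 and 108 CPM in the WT libraries and 54.0, 58.9 and 60.9 CPM in the cKO libraries (log2 fold change -1.26, SE 0.14, adjusted p = 0.00211). The presynaptic P/Q-type pore Cacna1a fell by 0.80 (adjusted p = 0.00485) and the T-type Cacna1i by 0.74 (adjusted p = 0.00884). Against this direction Cacna1s, the L-type pore of skeletal muscle, rose from 0.532, 0.703 and 0.880 CPM in WT to 8.21, 4.27 and 2.44 CPM in the cKO libraries (log2 fold change 2.81, SE 0.49, adjusted p = 0.00883). Every cKO library exceeded WT, with cKO A the highest. Casq1, given above, is known from the same step of muscle, the release of stored calcium. Nalcn, the sodium leak channel, fell by 0.86 (adjusted p = 0.00836), Hcn3, a pacemaker channel, by 0.70 (adjusted p = 0.00631), and the acid-sensing channels Asic1 and Asic2 by 0.54 and 1.96 (adjusted p = 0.00501 and 0.00669). In their list of TRP, HCN and other cation channels 9 of 32 fell, 5 without cKO B, and 3 rose (5 with the block), among them Cngb1, a cyclic nucleotide-gated subunit of photoreceptors, by 2.67 (adjusted p = 0.00297). Of 30 chloride channels and transporters 4 fell and 2 rose (6 and 6 with the block), and their median was -0.02. The number of these that rose was 0 without WT A, WT B, WT C, cKO A or cKO B and 1 without cKO C.

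**Figure D3:**
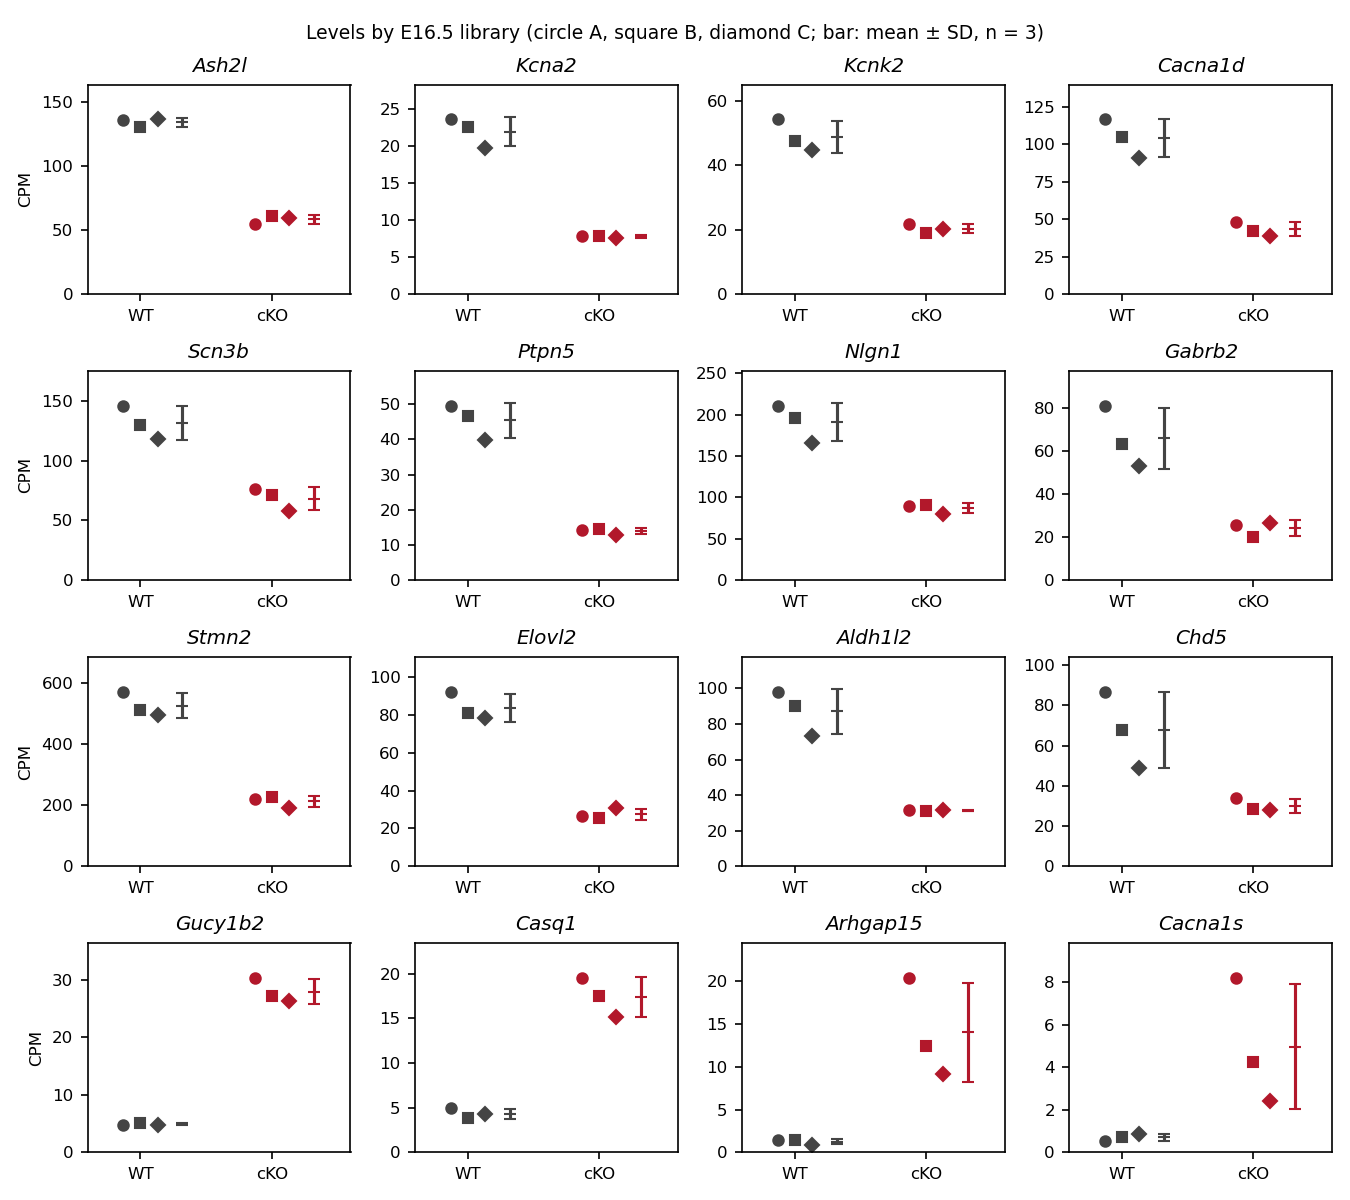
Level (CPM, vertical axis from 0) of 16 genes in the 6 E16.5 libraries, WT in grey and cKO in red, with marker shape giving the shared number and a bar giving mean ± SD over 3 libraries. In every panel the 3 cKO points lie wholly on 1 side of the 3 WT points, below in the upper 3 rows and above in Gucy1b2, Casq1, Arhgap15 and Cacna1s.

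Many receptors for transmitters fell. Of 85 tested receptor genes 26 fell (30.6%) and 1 rose (1.18%), beside 9.88% and 5.98% of all genes. Their median was -0.52. Lower calls numbered 11 without WT B, 13 without cKO B, 14 without WT A and 16 without cKO C. With the block 40 fell and 3 rose. The number of receptor genes that rose was 0 without WT A, WT B, WT C or cKO B and 2 without cKO A or cKO C. GABA-A receptors carry fast inhibition and, in the embryo, depolarising GABA responses. Of 15 GABA-A and glycine receptor subunits 5 fell and none rose (8 fell with the block). The number that fell was 3 without WT A, WT B or cKO C. Gabrb2 was at 81.1, 63.3 and 53.2 CPM in the WT libraries and 25.7, 19.9 and 26.7 CPM in the cKO libraries (log2 fold change -1.45, SE 0.17, adjusted p = 0.00275). Gabra3, an alpha subunit typical of embryonic cortex, was at 24.6, 22.5 and 20.5 CPM in the WT libraries and 11.3, 9.47 and 8.64 CPM in the cKO libraries (log2 fold change -1.20, SE 0.13, adjusted p = 0.00219). Both subunits did not overlap between genotypes and stayed called with any single library left out.

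Ionotropic glutamate receptors had a median of -0.57 over 17 subunits, of which 5 fell (11 with the block) and none rose (1 with the block). Those that fell numbered 1 without WT A, WT B or cKO B, 2 without cKO C and 9 without cKO A. Grik5, a kainate receptor subunit, was at 152, 146 and 125 CPM in the WT libraries and 85.8, 89.2 and 90.0 CPM in the cKO libraries (log2 fold change -0.67, SE 0.0839, adjusted p = 0.00295) and was the member that kept its call throughout. Grin2b, the main NMDA receptor subunit of embryonic cortex, was at 365, 286 and 236 CPM in the WT libraries and 200.1, 141 and 128 CPM in the cKO libraries (log2 fold change -0.92, SE 0.20, adjusted p = 0.0206). Its WT libraries ranged widely, cKO A lay just below WT C, and the call was lost without WT A, WT B, cKO B or cKO C (adjusted p from 0.0580 to 0.0901). The AMPA receptor subunit Gria2 was not called (log2 fold change -0.25, adjusted p = 0.201, block adjusted p = 0.0124), nor was Gria1 (log2 fold change 0.07, adjusted p = 0.844). Of 9 metabotropic glutamate and GABA-B receptors 2 fell (5 with the block), 1 without WT A, WT B, cKO B or cKO C, among them Gabbr2, by 0.76 (adjusted p = 0.0354), a call lost without WT A, WT B, WT C, cKO B or cKO C (adjusted p from 0.0554 to 0.118).

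Among 44 tested receptors for amines, acetylcholine, purines and peptides 14 fell and 1 rose (2 with the block, and 2 without cKO C). Lower calls numbered 6 without WT B, 7 without cKO B and 9 without WT A. Adra2c, an adrenergic receptor that inhibits adenylate cyclase, was at 3.62, 3.10 and 3.52 CPM in the WT libraries and 0.427, 0.833 and 0.528 CPM in the cKO libraries (log2 fold change -2.5, SE 0.30, adjusted p = 0.00275). It was below 1 CPM in each cKO library. Chrnb2, the common beta subunit of brain nicotinic receptors, was at 126, 111 and 115 CPM in the WT libraries and 80.5, 78.7 and 78.8 CPM in the cKO libraries (log2 fold change -0.56, SE 0.0688, adjusted p = 0.00287). Chrm1, a muscarinic receptor of cortex, fell by 1.31 (adjusted p = 0.00920), Adora1, the inhibitory adenosine receptor, by 0.88 (adjusted p = 0.00509), and Oprl1, the nociceptin receptor, by 0.60 (adjusted p = 0.00513). The receptor that rose was Chrna7, the homomeric nicotinic receptor, at 40.6, 44.9 and 35.1 CPM in the WT libraries and 70.6, 58.5 and 47.2 CPM in the cKO libraries (log2 fold change 0.55, SE 0.15, adjusted p = 0.0487). Its call was lost without WT A, WT B, WT C, cKO A or cKO B (adjusted p from 0.0638 to 0.135).

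Genes of the synapse fell in both its compartments. Of 169 tested genes 58 fell (34.3%) and 5 rose (2.96%), beside 9.88% and 5.98% of all genes. Their median was -0.34, and with the block 94 fell and 14 rose. The number that fell was 38 without WT B or cKO B, and the number that rose was 1 without WT A, WT B, WT C or cKO B and 2 without cKO C. On the presynaptic side 25 of 65 vesicle and SNARE genes fell and 3 rose. Those that fell numbered 16 without cKO B and 40 without cKO A, and 41 with the block. Vesicle genes that rose numbered 7 with the block, 0 without WT B and 1 without WT A, WT C or cKO B. Dnm1, the dynamin that pinches off vesicles, was at 54.9, 45.7 and 40.5 CPM in the WT libraries and 24.3, 22.2 and 20.0 CPM in the cKO libraries (log2 fold change -1.08, SE 0.13, adjusted p = 0.00280). Cplx2, which clamps SNARE complexes, was at 219, 195 and 203 CPM in the WT libraries and 148, 130.4 and 129 CPM in the cKO libraries (log2 fold change -0.60, SE 0.0774, adjusted p = 0.00322). Doc2b, a calcium sensor of release, fell by 1.67 (adjusted p = 0.00401), and the synaptotagmins Syt6 and Syt16 by 1.52 and 1.51 (adjusted p = 0.00288 and 0.00261). Vesicle genes did not all move: Snap25, a SNARE of the plasma membrane, was not called, at 113, 130.5 and 111 CPM in the WT libraries and 119.7, 113 and 98.4 CPM in the cKO libraries (log2 fold change -0.10, SE 0.0965, adjusted p = 0.533). Unc13b, a priming factor, rose from 139, 128 and 124 CPM to 207, 174 and 169 CPM (log2 fold change 0.49, SE 0.0908, adjusted p = 0.0114), a call lost without WT B (adjusted p = 0.0591).

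Postsynaptic scaffold and signalling genes fell in 16 of 39 cases, in 10 without WT B, and rose in none (in 2 with the block). Ptpn5, a tyrosine phosphatase that acts on NMDA receptors, was at 49.6, 46.6 and 39.9 CPM in the WT libraries and 14.2, 14.47 and 12.9 CPM in the cKO libraries (log2 fold change -1.71, SE 0.11, adjusted p = 8.19e-04). Dlg4, the scaffold PSD-95, was at 241, 225 and 212 CPM in the WT libraries and 148, 141 and 143 CPM in the cKO libraries (log2 fold change -0.65, SE 0.0663, adjusted p = 0.00188). The genotypes did not overlap in either gene, and the log2 fold change of Ptpn5 was larger in size than that of Dlg4. Dlgap3, a partner of PSD-95, fell by 1.41 (adjusted p = 0.00173). Among 65 synaptic adhesion genes 17 fell and 2 rose (30 and 5 with the block), and the number that fell was 11 without WT B or cKO B. Adhesion genes that rose numbered 0 without WT A, WT C, cKO B or cKO C and 1 without WT B. Nlgn1, a neuroligin of excitatory synapses (chromosome 3, 25431841 to 26331909, minus strand, 9 exons in mm10), was at 211, 196 and 166 CPM in the WT libraries and 89.4, 90.9 and 79.9 CPM in the cKO libraries (log2 fold change -1.14, SE 0.10, adjusted p = 0.00148). Nlgn2, the neuroligin of inhibitory synapses, was at 229, 200.1 and 174 CPM in the WT libraries and 104, 103 and 95.7 CPM in the cKO libraries (log2 fold change -1.0, SE 0.10, adjusted p = 0.00188). For both neuroligins the highest cKO library lay well below the lowest WT library.

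**Figure D4:**
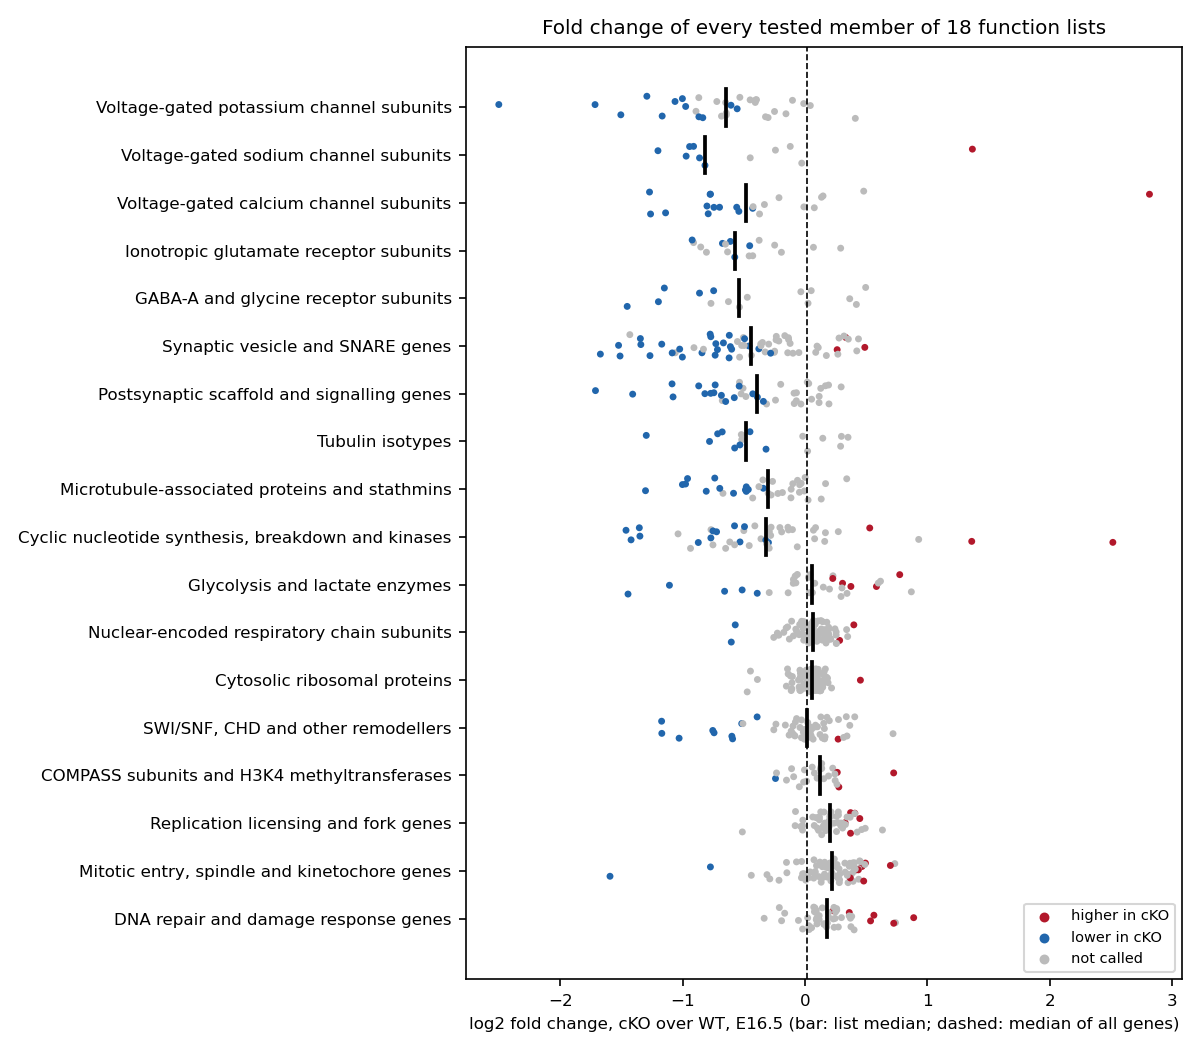
Log2 fold change of cKO over WT (horizontal axis) for every tested member of 18 function lists, coloured by call, with a bar at each list's median and a dashed line at the median of all genes (0.02). Channel, receptor, synapse, tubulin and microtubule-associated lists lie left of the dashed line, and replication, mitotic and DNA repair lists lie right of it with few called members.

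Of 142 tested cytoskeleton genes 31 fell (21.8%) and 5 rose (3.52%), beside 9.88% and 5.98% of all genes. With the block 50 fell and 19 rose. Lower calls numbered 19 without cKO B, and the number that rose was 1 without WT B or cKO B, 2 without WT A, 3 without cKO C and 11 without cKO A. Tubulins form the microtubules of axons and spindles. Of 16 tubulin genes 8 fell and none rose (median -0.48), and the number that fell was 5 without WT A or cKO B. The abundant neuronal isotype Tuba1a was at 4109, 3909.8 and 3698 CPM in the WT libraries and 2909, 2955 and 2719 CPM in the cKO libraries (log2 fold change -0.45, SE 0.0695, adjusted p = 0.00593). Tubb2b was at 2734, 2486 and 2272 CPM in the WT libraries and 1739, 1744 and 1550.1 CPM in the cKO libraries (log2 fold change -0.57, SE 0.0885, adjusted p = 0.00582). Tubb3, the neuron-specific isotype, was at 1198, 1042 and 995 CPM in the WT libraries and 809, 732 and 698 CPM in the cKO libraries (log2 fold change -0.53, SE 0.0923, adjusted p = 0.00898). Each was lower in all cKO libraries, though tubulin genes are near copies of each other and their counts are less certain for that. Stmn2, a stathmin of growing axons (chromosome 3, 8509527 to 8561604, plus strand, 5 exons in mm10), was at 573, 512 and 496 CPM in the WT libraries and 222, 226 and 193 CPM in the cKO libraries (log2 fold change -1.30, SE 0.0886, adjusted p = 8.19e-04), the largest decrease among the called microtubule-associated genes. Of 35 such genes 13 fell and none rose (21 and 1 with the block). Stmn1 and Stmn3 fell by 0.58 and 0.70 (adjusted p = 0.00303 and 0.00323), Dclk2, a kinase of the doublecortin family, by 0.81 (adjusted p = 0.00205), and Gap43, a growth cone protein, by 0.48 (adjusted p = 0.00498). Map2, the dendritic protein, was not called (log2 fold change -0.28, adjusted p = 0.108) but was with the block (adjusted p = 0.00632). Of 44 kinesins 4 fell and 1 rose (10 and 13 with the block), with a median of 0.02. The number that fell was 2 without WT C or cKO B and 9 without cKO A, and the number that rose was 0 without cKO B and 7 without cKO A.

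Guidance and adhesion genes steer axons and sort cells. Of 194 tested genes 27 fell (13.9%) and 11 rose (5.67%), beside 9.88% and 5.98% of all genes. With the block 56 fell and 25 rose. Those that fell numbered 47 without cKO A and 17 without WT B, and the number that rose 3 without WT B and 6 without WT C or cKO B. Dscam, an adhesion molecule of neurite spacing, was at 132, 122 and 121 CPM in the WT libraries and 65.9, 61.6 and 70.1 CPM in the cKO libraries (log2 fold change -0.93, SE 0.0742, adjusted p = 0.00126). Sema6a fell by 0.47 (adjusted p = 0.00340), the netrin receptor Unc5d by 0.50 (adjusted p = 0.00403), and the ephrins Efnb3, Efna5 and Efna3 by 0.79, 0.84 and 0.88 (adjusted p = 0.00358, 0.00605 and 0.00818). Cntn2, an adhesion molecule of early cortical axons, was at 1743, 1773 and 1651 CPM in the WT libraries and 1101, 1207 and 1218 CPM in the cKO libraries (log2 fold change -0.55, SE 0.0693, adjusted p = 0.00302). Contrary to these, Pcdh19, a cell-sorting protocadherin of the X chromosome, was at 81.7, 88.6 and 81.6 CPM in the WT libraries and 121, 151 and 203 CPM in the cKO libraries (log2 fold change 0.92, SE 0.17, adjusted p = 0.0109).

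Clustered protocadherins, from which neurons draw combinations that mark cell identity, gave different counts in each cluster. Their genes are near copies of each other, so single members are uncertain. All 21 tested beta genes had a positive log2 fold change (0.06 to 1.11, median 0.78), 6 rose (13 with the block), and none fell. Those that rose numbered 2 without WT B or WT C and 3 without cKO B. Pcdhb19 was at 29.2, 27.8 and 21.4 CPM in the WT libraries and 48.2, 45.8 and 41.2 CPM in the cKO libraries (log2 fold change 0.79, SE 0.13, adjusted p = 0.00727). Pcdhb17 was at 16.1, 14.3 and 12.3 CPM in the WT libraries and 36.2, 26.6 and 23.5 CPM in the cKO libraries (log2 fold change 1.02, SE 0.18, adjusted p = 0.00916). All cKO libraries were higher for both. In the gamma cluster 2 of 22 genes fell (5 with the block) and none rose (median -0.13), with Pcdhgc3 at 202, 197 and 177 CPM in the WT libraries and 90.3, 99.0 and 102 CPM in the cKO libraries (log2 fold change -0.98, SE 0.0789, adjusted p = 0.00126). In the alpha cluster 1 of 12 fell (2 with the block), Pcdhac2 (log2 fold change -0.98, adjusted p = 0.0104), and the median was -0.24. Over all 55 clustered genes 3 fell, and 7 without cKO A. The difference between clusters was not tested.

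Of 489 metabolic genes 40 rose (8.18%) and 41 fell (8.38%), beside 5.98% and 9.88% of all genes, with a median of 0.04. With the block 79 rose and 73 fell. The number that rose was 12 without WT B, 13 without cKO B and 19 without WT A, and the number that fell was 21 without WT B and 23 without WT A or cKO B. Respiratory chain subunits, which carry oxidative phosphorylation, were called in 4 of 77 (5.19%), beside 15.9% of all genes. These calls were 2 in each direction, and with the block 6 were higher and 2 lower. Those higher numbered 0 without WT A, WT B or cKO B and 1 without cKO A, and those lower 0 without WT B and 1 without cKO C, WT A or WT C. Mitochondrial ribosomal proteins were called in 3 of 78, all higher, and with the block 8 were higher and 2 lower. The higher ones numbered 0 without WT B or cKO B and 1 without WT A. Genes encoded in mitochondria were called in none of 13. The summed level of these ran from 2069 to 4487 CPM and was low in WT A and cKO A.

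Within glycolysis, the breakdown of glucose to pyruvate, 5 of 31 enzymes rose (12 with the block) and 5 fell. Those that rose numbered 1 without WT A, WT B or cKO B and 3 without cKO C, and the number that fell was 1 without cKO B and 3 without WT A, WT B or cKO C. For 3 steps, those of hexokinase, phosphofructokinase and enolase, 1 isoenzyme rose and another fell. Phosphofructokinase commits glucose to the pathway. Per kilobase of exon, the liver-type isoenzyme Pfkl was at 18.7, 17.4 and 18.1 CPM in WT and 28.3, 27.4 and 25.3 CPM in the cKO libraries (log2 fold change 0.58, SE 0.0703, adjusted p = 0.00275). The platelet-type Pfkp was at 16, 11.7 and 11.6 CPM per kilobase in WT and 5.41, 3.92 and 5.10 in the cKO libraries (log2 fold change -1.45, SE 0.17, adjusted p = 0.00257). The muscle-type Pfkm was at 46.5, 41.1 and 40.9 CPM per kilobase in WT and 34.2, 32.8 and 31.0 in the cKO libraries (log2 fold change -0.39, SE 0.0760, adjusted p = 0.0138), a call lost without cKO B (adjusted p = 0.0625). Pfkl thus made up 23 to 25.6% of the 3 isoenzymes in WT and 41.2 to 42.7% in cKO, and Pfkp 16.4 to 19.7% and 6.11 to 8.29%, while their sum was 70.1 to 81.1 and 61.5 to 67.9 CPM per kilobase. Hexokinase traps glucose in the cell. Hk2 was 12 to 20.4% of the hexokinases in WT and 25 to 36.3% in cKO (log2 fold change 0.77, adjusted p = 0.0156), a call lost without WT A, WT B or cKO B (adjusted p from 0.0517 to 0.0744). Hk1, the main isoenzyme, fell by 0.51 (adjusted p = 0.0357), a call lost without WT A, WT B, cKO B or cKO C (adjusted p from 0.0880 to 0.133). Of the enolases Eno2, the neuronal isoenzyme, was 5.30 to 6.66% in WT and 2.19 to 3.80% in cKO (log2 fold change -0.66, adjusted p = 0.0479), a call lost without WT A, WT B, WT C, cKO B or cKO C (adjusted p from 0.0800 to 0.155). Eno1, the widespread form, rose by 0.38 (adjusted p = 0.0128), a call lost without WT A, WT B or cKO B (adjusted p from 0.0539 to 0.0686). No isoenzyme of aldolase or lactate dehydrogenase was called.

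**Figure D5:**
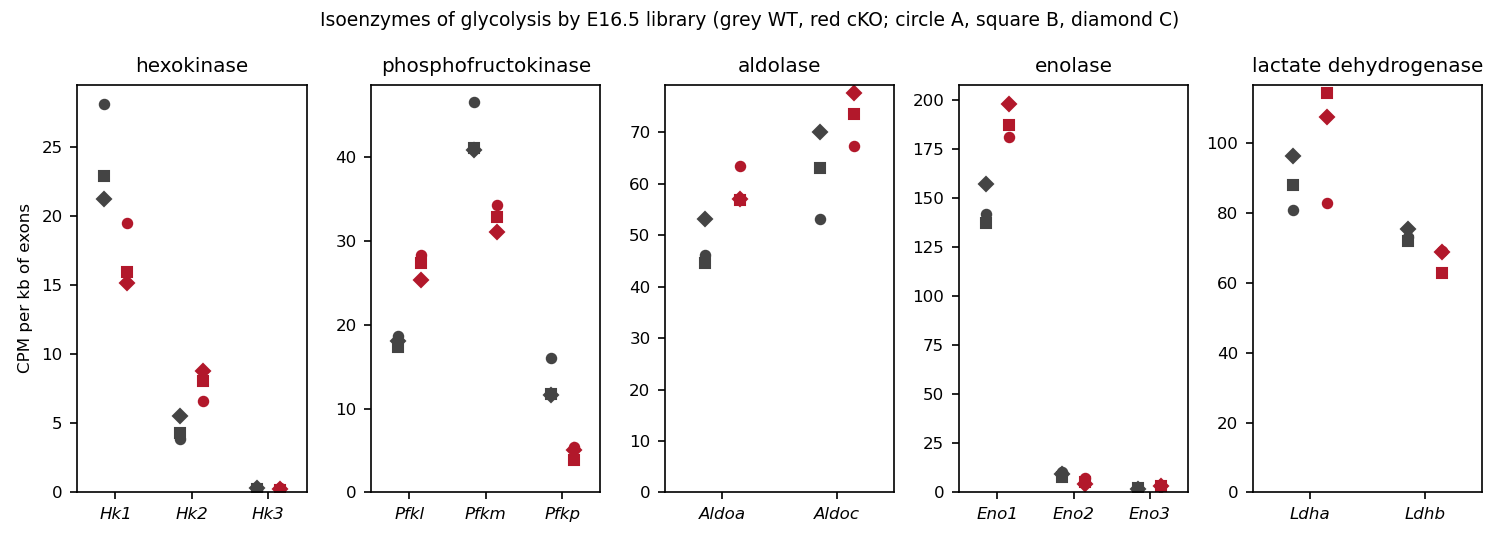
Level of glycolytic isoenzymes in CPM per kilobase of exon (vertical axes from 0, 1 panel per enzyme) in the 6 libraries, WT grey and cKO red, with marker shape giving the shared number. Pfkl lies higher and Pfkp lower in all 3 cKO libraries, and Pfkm lies lower. Aldoa lies higher in all 3 cKO libraries but was not called, and the points of Aldoc and Ldha overlap between genotypes.

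Lipid, serine and folate enzymes held some of the most certain changes of the class. Elovl2, which elongates very long fatty acids such as those of brain membranes (chromosome 13, 41182382 to 41220403, minus strand, 8 exons in mm10), was at 92.2, 81.1 and 78.2 CPM in the WT libraries and 26.7, 25.2 and 30.7 CPM in the cKO libraries (log2 fold change -1.61, SE 0.10, adjusted p = 8.19e-04). Scd1, a desaturase, was at 20.3, 23.4 and 17.8 CPM in the WT libraries and 7.84, 7.91 and 6.66 CPM in the cKO libraries (log2 fold change -1.45, SE 0.14, adjusted p = 0.00186). The acyl-CoA synthetases Acsl6 and Acsl5 fell by 0.76 and 1.06 (adjusted p = 0.00322 and 0.00447). In fatty acid synthesis, elongation and desaturation 6 of 31 genes fell (12 with the block) and 3 rose, 0 without WT B and 1 without WT A, WT C, cKO B or cKO C. Folate enzymes pass single carbons to nucleotides and methionine, the source of methyl groups. Of 30 serine and folate genes 6 rose (10 with the block) and 2 fell, 1 in each fit that left out a library. Mtr, methionine synthase, was at 47.8, 50.8 and 52.6 CPM in the WT libraries and 80.9, 75.4 and 73.8 CPM in the cKO libraries (log2 fold change 0.61, SE 0.0732, adjusted p = 0.00276). Its reductase Mtrr rose by 0.60 (adjusted p = 0.00840), Mthfd1 of the cytosolic folate cycle by 0.39 (adjusted p = 0.00783), and Gcsh of glycine cleavage by 0.76 (adjusted p = 0.00946). Aldh1l2, which burns mitochondrial formyl-folate, went the other way, at 98.2, 90.1 and 73.3 CPM in the WT libraries and 31.4, 30.9 and 31.6 CPM in the cKO libraries (log2 fold change -1.48, SE 0.11, adjusted p = 0.00126). Me1, the cytosolic malic enzyme, was at 18, 16.3 and 17.6 CPM in the WT libraries and 3.31, 4.84 and 6.07 CPM in the cKO libraries (log2 fold change -1.88, SE 0.20, adjusted p = 0.00205). Around the citrate cycle Ogdhl, a brain form of oxoglutarate dehydrogenase, fell by 1.23 (adjusted p = 0.00186), while Suclg2, a succinyl-CoA ligase subunit, and Pdk1, which inhibits pyruvate dehydrogenase, rose by 0.96 and 0.39 (adjusted p = 0.00552 and 0.00813). Of 37 genes of that cycle 5 rose, 2 without WT B or cKO B and 3 without WT A or cKO C, and 4 fell, 2 without WT A, WT B, WT C or cKO B. In the pentose phosphate pathway Pgd and Taldo1 rose by 0.46 and 0.45 (adjusted p = 0.00636 and 0.00923) and Tkt, transketolase, fell by 0.53 (adjusted p = 0.00833).

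Intracellular signalling genes fell in 50 of 279 cases (17.9%) and rose in 11 (3.94%), beside 9.88% and 5.98% of all genes. Their median was -0.15. With the block 89 fell and 30 rose. Lower calls numbered 28 without WT B, 31 without cKO B and 33 without WT A, and the number that rose was 1 without WT B, 2 without WT A, 3 without cKO B and 6 without WT C or cKO C. Cyclic AMP and cyclic GMP relay receptor signals. Of 46 genes that make, break or respond to them 13 fell (25 with the block), 8 without WT B. The 3 that rose were Gucy1b2, Gucy2f and Pde3a, and of these Gucy1b2 alone stayed called in each fit that left out WT A, WT B or cKO B. Adcy5, an adenylate cyclase, was at 59.1, 60.6 and 50.4 CPM in the WT libraries and 19.7, 22.1 and 21.8 CPM in the cKO libraries (log2 fold change -1.42, SE 0.10, adjusted p = 9.21e-04). Pde5a, which breaks down cyclic GMP, was at 48.5, 46.4 and 50.7 CPM in the WT libraries and 15.9, 20.5 and 20.8 CPM in the cKO libraries (log2 fold change -1.35, SE 0.12, adjusted p = 0.00139). Npr2, the guanylate cyclase receptor for C-type natriuretic peptide, was at 53.3, 53.9 and 42.0 CPM in the WT libraries and 15, 22.0 and 21.4 CPM in the cKO libraries (log2 fold change -1.35, SE 0.17, adjusted p = 0.00291). Each of the 3 was lower in all cKO libraries, in contrast to the Gucy1b2 values given above. Of 48 G proteins and their regulators 14 fell and 3 rose (5 rose with the block), and the number that fell was 7 without WT A, WT B or cKO B. Those that rose numbered 0 without WT A, WT B or cKO B and 1 without cKO A or cKO C. Gng3, a neuronal gamma subunit, was at 31.2, 26.5 and 27.4 CPM in the WT libraries and 9.28, 8.53 and 11.1 CPM in the cKO libraries (log2 fold change -1.56, SE 0.13, adjusted p = 0.00126), and Rgs6 and Gnb4 fell by 1.44 and 1.22 (adjusted p = 0.00220 and 0.00173). None of 15 immediate early genes was called, with 2 higher and 3 lower with the block. Fzd7, a Wnt receptor, was at 29.4, 37.0 and 28.7 CPM in the WT libraries and 8.91, 16.2 and 13.4 CPM in the cKO libraries (log2 fold change -1.30, SE 0.21, adjusted p = 0.00711), with every cKO library below WT. Of 36 Wnt ligands and receptors 4 fell (11.1%) and none rose, beside 9.88% and 5.98% of all genes. With the block 7 fell and 1 rose, beside 17.9% and 14.3% of all genes. The number that fell was 2 without WT A, WT B, WT C or cKO B.

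Of 335 chromatin genes 19 rose (5.67%) and 23 fell (6.87%), beside 5.98% and 9.88% of all genes, with a median of 0.01. With the block 53 rose and 37 fell. The number that rose was 6 without WT B, 8 without cKO B, 9 without WT A and 11 without WT C, and the number that fell was 11 without cKO B, 12 without WT A or WT B and 14 without WT C. Among the other 25 subunits of COMPASS and relatives 3 rose (6 with the block) and 1 fell. Rbbp5, which binds Ash2l directly, was at 59.0, 57.6 and 58.5 CPM in the WT libraries and 71.4, 71.3 and 69.5 CPM in the cKO libraries (log2 fold change 0.28, SE 0.0616, adjusted p = 0.0220). The cKO libraries of Rbbp5 lay above WT by a small margin, and the call was lost without WT A, WT B, WT C or cKO B (adjusted p from 0.0580 to 0.0942). Cxxc1, which recruits Setd1 complexes to CpG islands, rose by 0.26 (adjusted p = 0.0479), a call lost without WT A, WT B, WT C, cKO A, cKO B or cKO C (adjusted p from 0.0558 to 0.164). Prdm9, an enzyme known from meiosis, rose by 0.72 (adjusted p = 0.0107), a call lost without WT B (adjusted p = 0.0513). Kmt2e fell by 0.24 (adjusted p = 0.0419), a call lost without WT A, WT B, WT C, cKO A or cKO B (adjusted p from 0.0596 to 0.156). The core partners Wdr5 and Dpy30 were not called (log2 fold change 0.13 and 0.23, adjusted p = 0.236 and 0.260), nor were the enzymes Kmt2a (log2 fold change -0.0038, adjusted p = 0.979) and Kmt2d (log2 fold change 0.06, adjusted p = 0.582).

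Of 58 chromatin remodellers 9 fell and 1 rose, and with the block 11 fell and 11 rose. Remodellers that rose numbered 0 without WT A, WT B, WT C, cKO B or cKO C and 4 without cKO A. Chd5, a neuronal helicase, was at 86.8, 67.8 and 48.8 CPM in the WT libraries and 34.1, 28.4 and 27.9 CPM in the cKO libraries (log2 fold change -1.17, SE 0.20, adjusted p = 0.00811). Chd3 was at 1064, 944 and 909.6 CPM in the WT libraries and 697, 662 and 681 CPM in the cKO libraries (log2 fold change -0.52, SE 0.0763, adjusted p = 0.00506). Chd4, a related helicase of NuRD complexes, was not called, at 702, 688 and 764 CPM in the WT libraries and 652, 671 and 713 CPM in the cKO libraries (log2 fold change -0.08, adjusted p = 0.474). The SWI/SNF subunits of neurons Dpf1 and Smarcd3 fell by 0.75 and 0.74 (adjusted p = 0.00416 and 0.00217), and the ATPase Smarca4 was not called (log2 fold change -0.01, adjusted p = 0.921). Phf19, a polycomb accessory protein, was at 8.51, 8.14 and 5.95 CPM in the WT libraries and 1.6, 1.20 and 2.18 CPM in the cKO libraries (log2 fold change -2.19, SE 0.26, adjusted p = 0.00274). Among enzymes of repression Dnmt3b, a DNA methyltransferase, was at 9.78, 10.1 and 7.66 CPM in the WT libraries and 18.6, 14.9 and 16.3 CPM in the cKO libraries (log2 fold change 0.86, SE 0.15, adjusted p = 0.00894), and Setdb2, of the family that methylates lysine 9 of histone H3, rose by 0.74 (adjusted p = 0.00830). The histone deacetylases Hdac7 and Hdac10 fell by 0.76 and 0.84 (adjusted p = 0.00562 and 0.00850), and Sin3a, a scaffold of deacetylase complexes, rose by 0.39 (adjusted p = 0.00657).

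Of 232 cell cycle genes 21 rose (9.05%) and 4 fell (1.72%), beside 5.98% and 9.88% of all genes. Their median was 0.19 beside 0.02 for all genes. With the block 84 rose and 13 fell, beside 14.3% and 17.9% of all genes. Those that rose numbered 3 without WT B, 4 without WT A, 5 without cKO B, 11 without cKO C and 65 without cKO A. Over all genes those that rose in these fits numbered 249, 320, 264, 687 and 1050, against 889 with all libraries. The number of cell cycle genes that fell was 2 without WT A, WT B, WT C or cKO B. In cKO A the 83 mitotic genes stood at a median of -0.11 relative to the WT mean, against 0.28 and 0.49 in cKO B and cKO C, and the WT libraries stood at -0.18, 0.02 and 0.17. Both libraries numbered A were the lowest of their genotype. Apical progenitor markers stood at -0.21, 0.04 and 0.16 in WT and -0.22, 0.26 and 0.44 in cKO, and 3 of 23 rose and 2 fell (10 and 4 with the block). Apical markers that rose numbered 7 without cKO A and 1 without cKO B, cKO C, WT A or WT B, and those that fell 0 without WT A and 1 without WT B, WT C, cKO B or cKO C. Their part in the cell cycle values was not tested.

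Mki67, present in dividing cells, was at 288, 336 and 395 CPM in the WT libraries and 345, 393 and 498 CPM in the cKO libraries and was not called (log2 fold change 0.28, SE 0.15, adjusted p = 0.262), though it was with the block (adjusted p = 0.00174). Within each shared number the cKO library was above its WT partner, while the genotypes overlapped. In DNA replication 5 of 52 genes rose and none fell (21 and 1 with the block). The number that rose was 1 without WT A, WT B or cKO B, 2 without cKO C and 16 without cKO A. Rfc2, a clamp loader subunit, was at 38.2, 39.9 and 40 CPM in the WT libraries and 52.2, 50.1 and 50.8 CPM in the cKO libraries (log2 fold change 0.37, SE 0.0696, adjusted p = 0.0117), a call lost without WT B (adjusted p = 0.0532). In DNA repair 6 of 49 genes rose and none fell (19 and 1 with the block). Those that rose numbered 1 without WT B, 2 without WT A or cKO B, 3 without cKO C and 13 without cKO A. Prkdc, the DNA-dependent protein kinase, was at 93.1, 119.9 and 116 CPM in the WT libraries and 151, 157 and 169 CPM in the cKO libraries (log2 fold change 0.54, SE 0.10, adjusted p = 0.0126), a call lost without cKO B (adjusted p = 0.0535). Among mitotic genes 6 rose and 2 fell (32 and 7 with the block). The number that rose was 1 without WT A or WT B, 2 without WT C or cKO B, 3 without cKO C and 27 without cKO A. The larger decrease of those 2 was Cenpv, a centromere protein, at 37.8, 32.2 and 34.6 CPM in the WT libraries and 9.01, 12.2 and 13.5 CPM in the cKO libraries (log2 fold change -1.59, SE 0.15, adjusted p = 0.00183), with cKO and WT far apart. Plk1, the kinase of mitotic entry, also fell, by 0.77 (adjusted p = 0.0397), a call lost without WT A, WT B, WT C or cKO B (adjusted p from 0.0913 to 0.135).

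The p53 protein switches on genes of arrest and death after DNA damage. Of 23 p53 target genes 4 rose and 1 fell, together 21.7% beside 15.9% of all genes. With the block 7 rose and 3 fell. The number that rose was 0 without cKO B, 1 without WT B and 7 without cKO C. The number of p53 targets that fell was 0 without WT A, WT B or cKO B and 2 without cKO A. Eda2r, a death receptor induced by p53, was at 2.77, 5.15 and 3.67 CPM in the WT libraries and 10.7, 10.6 and 7.98 CPM in the cKO libraries (log2 fold change 1.34, SE 0.24, adjusted p = 0.0103), a call lost without cKO B (adjusted p = 0.0509). Ccng1, another target, rose by 0.55 (adjusted p = 0.0188), a call lost without WT A, WT B or cKO B (adjusted p from 0.0677 to 0.0769). Of 208 genes of protein synthesis and turnover 6 rose (2.88%) and 3 fell (1.44%), beside 5.98% and 9.88% of all genes. With the block 22 rose and 10 fell. Leaving out 1 library, the number that rose was 0 without WT A, WT B or cKO B, 1 without cKO C and 2 without WT C. Of 85 cytosolic ribosomal proteins 1 rose, 2 without cKO A and 0 without cKO B, cKO C, WT A or WT B, and with the block 8 rose and 1 fell. Of 80 matrix genes 11 fell (13.75%) and 6 rose (7.5%), beside 9.88% and 5.98% of all genes. With the block 17 fell and 12 rose, beside 17.9% and 14.3% of all genes. The number that fell was 7 without WT B. Meningeal fibroblast markers, which include matrix genes, summed to 102, 101 and 122 CPM in WT and 103, 86.5 and 79.1 CPM in cKO, and 9 of 10 had a negative log2 fold change. The 1 that fell was Cxcl12, a chemokine, by 0.69 (adjusted p = 0.00624), and the part of these markers in the matrix values was not tested. Besides Fbn2, its relative Fbn1 fell by 0.82 (adjusted p = 0.00211), and Col9a3 by 1.16 (adjusted p = 0.00421). The number of matrix genes that rose was 0 without cKO B, 2 without WT B and 3 without WT A or WT C. Of 61 ciliary genes 3 rose (4.92%) and 2 fell (3.28%), beside 5.98% and 9.88% of all genes. With the block 14 rose and 3 fell. The number that rose was 6 without cKO A and 7 without cKO C. Ciliary genes that fell numbered 0 without WT A, WT B or cKO B and 1 without WT C, cKO A or cKO C. Bbs9, of the complex that carries cargo to cilia, was at 33.9, 33.3 and 31.7 CPM in the WT libraries and 63.6, 58.5 and 54.7 CPM in the cKO libraries (log2 fold change 0.84, SE 0.0833, adjusted p = 0.00186).

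None of the tested markers of choroid plexus, endothelium and pericytes, microglia or red blood cells was called, also with the block. Endothelial markers summed to 233, 199 and 208 CPM in WT and 246, 200.3 and 159.8 CPM in cKO, and microglial markers to 50.4, 51.6 and 58.7 CPM in WT and 78.1, 51.1 and 43.8 CPM in cKO. Of 21 GABAergic and ventral markers none was called (4 fell with the block), with sums of 455 to 589 CPM in WT and 407 to 567 CPM in cKO. Of 16 upper-layer markers 2 fell (11 with the block), and the number was 1 without WT A or cKO C and 9 without cKO A. Of 16 deep-layer and subplate markers 5 fell and none rose (1 rose with the block), and the number that fell was 1 without WT A, WT B or cKO B, 2 without WT C and 3 without cKO C. Intermediate progenitor markers had 1 of 16 lower, Sstr2, a somatostatin receptor, and none higher (3 and 2 with the block). The number lower was 0 without WT B, WT C or cKO B and 2 without cKO A. Eomes, their defining factor, was not called, at 236, 264 and 290.2 CPM in the WT libraries and 127, 216 and 239 CPM in the cKO libraries (log2 fold change -0.44, adjusted p = 0.193, block adjusted p = 0.112). Within each shared number the cKO value of Eomes was below its WT partner, while the genotypes overlapped. Of 14 astrocyte and oligodendrocyte markers Mbp and Sparcl1 fell (3 with the block) and 1 rose. The number that rose was 0 without WT A, WT B, WT C, cKO A or cKO B. Those that fell numbered 1 without WT A, WT B, WT C or cKO C. Of 9 Cajal-Retzius markers 1 rose, Ebf3 (2 with the block), 0 without WT A, WT B or cKO B. Of 12 hippocampal and hem markers none was called (2 fell with the block).

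The same genotypes at E14.5 gave far fewer calls, 52 higher (0.352%) and 245 lower (1.66%), together 2.01% of 14788 genes, and there genotype coincided with embryo sex. Directions were shared: of the genes called at E16.5 and tested at both ages, 846 of 861 higher genes (98.3%) and 1439 of 1447 lower genes (99.4%) had the same sign at E14.5, beside 82.1% of all genes. Called higher at both ages were 44, of those 861 and of the 52 at E14.5, and called lower at both were 217, of those 1447 and of the 245 at E14.5, and in opposite directions none. The median log2 fold change of the higher genes was 0.50 at E16.5 and 0.36 at E14.5, and that of the lower genes -0.78 and -0.70. Ash2l itself stood at -1.28 at E14.5. A test of the age difference over all 12 libraries called 0 of 15338 genes, with 318 (2.07%) at an unadjusted p under 0.05, and 1 with the block (567 unadjusted, 3.70%). That gene was Dlx6os1, an antisense RNA of the ventral Dlx locus, named after its values were seen, with a difference of 1.58, E16.5 minus E14.5, in the log2 fold change (SE 0.144, edgeR adjusted p = 0.0116). DESeq2 was not run for this difference. The GABAergic and ventral markers as a list had a median log2 fold change of -0.135 at E16.5 and -0.998 at E14.5. Their part in the Dlx6os1 difference was not tested. Gucy1b2, at 2.52 at E16.5 and 1.42 at E14.5, had a difference of 1.11 that did not pass (adjusted p = 0.9999).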

How the data were processed

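RNA of dorsal cortex was extracted with TRIzol, per the labels' protocols. The deposited counts are unscaled fragments per gene. The authors used STAR 2.5.2b with the mm10 genome, per the submitters' processing notes. Counting was with featureCounts 1.5.2 over RefSeq exons, strand setting 2 and a minimum overlap of 25 bases, per the file headers. The authors' deposited table, made with DESeq2 1.14.1 per the submitters' processing notes, gives a log2 fold change and a p-value per gene. It calls 2754 of 16190 genes (1013 higher and 1741 lower in cKO), of which 2310 were called here in the same direction.

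From the counts edgeR 4.0.16 in R 4.3.3 was run with TMM scaling, its filter on low counts by group and robust quasi-likelihood tests. P-values were adjusted by Benjamini-Hochberg over all 14865 genes, with a threshold of 0.05. The 3 numbers in the titles were used as a block in a parallel fit. Same-numbered pairs varied together (correlation 0.281, 0.210 and 0.112), though WT C and cKO B, of different numbers, reached 0.107. Alternatives were DESeq2 1.42.0, other scalings and filters, embryo sex as a term, all 12 libraries and leaving out each library. The scripts were tested on simulated data. Of 27179 genes 847 had no symbol in the file, and 27 symbols turned into dates were repaired. CPM use TMM library sizes, and totals of 15185647 to 19395712 fragments limit precision mainly for genes near 1 CPM.

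The comparison, the 65 function and 15 marker lists and the tests were chosen with earlier results of these data known. Genes named are Ash2l, the 8 largest changes and 6 smallest p-values in each direction, and from each list up to 5 called genes per direction and 3 uncalled ones of highest level, at a mean of 1 CPM or more and without overlap where called. The tissue markers Emx1 and Dlx2, and Snap25, Wdr5, Dpy30, Aldoa, Aldoc and Ica1l, fall outside this rule and were chosen after their values were seen. Some genes that this rule names are not reported here.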

Additional observations from a re-analysis of the deposited data

How the results depend on the processing

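The fall of Ash2l kept its direction and its call under every alternative run, at -1.16 to -1.23. With the replicate block the count of called genes at E16.5 was 4790 against 2358, with 2132 higher against 889 and 2658 lower against 1469. Of the 375 named calls 1 was lost with the block, while 85 named genes that were not called became called. Of the same 375 calls 86 were lost with embryo sex as a term and 103 in the fit over all 12 libraries. With embryo sex as a term 514 genes were called higher. Leaving out 1 library gave 987 to 2855 calls, 249 to 1050 higher and 731 to 1805 lower; these fits have fewer libraries. Of the 375 named calls 186 were kept in all 6. DESeq2 called 2778 genes, library totals in place of TMM 2491, and the fit over all 12 libraries 1882. The age difference had 1 call with the replicate block against 0, and the cause was not tested. At a CpG ratio of 0.75 the CpG-rich share was 53.5% of all genes, 37.2% of genes lower by at least 2-fold and 17.3% of genes higher by at least 2-fold, since the threshold is stricter. No named gene called here changed direction under any alternative run.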
